A study of Arabidopsis thaliana with 6 samples.

Results

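A set of 10 nuclear genes that encode early enzymes of tetrapyrrole synthesis was followed through 6 RNA-seq libraries of Arabidopsis thaliana seedlings. They are a fixed list of loci for the steps from glutamyl-tRNA to the oxidation of coproporphyrinogen, and all 10 were found in both deposited tables among 32548 genes. The list does not hold every gene for these steps. The further isoforms HEMA3, HEMB2 and HEMF2 also have rows in both tables and are described with the rest of the pathway. Wild type (Col-0, the standard laboratory accession) gave 2 libraries, and 2 came from seedlings with the genotype label epl1a/b(-/-). The genes EPL1A and EPL1B encode plant counterparts of Enhancer of polycomb, which in yeast and animals belongs to NuA4, a complex that acetylates histones, and the study asks what that complex contributes to chlorophyll synthesis and photosynthesis. A separate pair of Col-0 libraries came from seedlings kept in the dark (plates wrapped in foil) and in the light, 1 library each. The labels give 23 °C, days of 16 h of light and 8 h of dark, and an age of 2 weeks for all 6 libraries. That includes the dark library, whose plates were wrapped in foil. The labels do not say what kind of mutation the line carries, how long the foil stayed on, or whether replicates were grown apart, and p-values therefore speak only of how far these libraries lie apart, a spread that may be technical.

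Tetrapyrroles are ring-shaped pigments and cofactors, and in plants the pathway runs inside the plastid with enzymes made from nuclear genes. Glutamate bound to its transfer RNA is reduced and rearranged to 5-aminolevulinate, which is assembled into a ring and trimmed until protoporphyrin is formed. From there the route splits into chlorophyll, through insertion of magnesium, and heme, through insertion of iron, while siroheme leaves earlier. The reduction of glutamyl-tRNA, the task of HEMA1 and HEMA2, is the step best known for setting the flow of the pathway, and HEMA1 is known as the light-induced, photosynthetic form.

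The genes are given in the order of the pathway with their place in the RefSeq annotation of TAIR10.1. HEMA1 (AT1G58290, chromosome 1, 21623700 to 21626402, minus strand) and HEMA2 (AT1G09940, chromosome 1, 3236908 to 3239554, minus strand) encode glutamyl-tRNA reductase. GSA1 (AT5G63570, chromosome 5, 25451800 to 25453845, plus strand) and GSA2 (AT3G48730, chromosome 3, 18049571 to 18051778, plus strand) encode glutamate-1-semialdehyde aminotransferase, which makes 5-aminolevulinate. HEMB1 (AT1G69740, chromosome 1, 26231620 to 26235043, plus strand) encodes 5-aminolevulinate dehydratase, which joins a pair of those molecules to porphobilinogen. HEMC (AT5G08280, chromosome 5, 2663499 to 2665826, minus strand) encodes porphobilinogen deaminase, which builds the open chain, and HEMD (AT2G26540, chromosome 2, 11287308 to 11290361, minus strand) encodes uroporphyrinogen III synthase, which closes the ring. HEME1 (AT3G14930, chromosome 3, 5020461 to 5023146, plus strand) and HEME2 (AT2G40490, chromosome 2, 16912805 to 16915202, plus strand) encode uroporphyrinogen decarboxylase, whose product is coproporphyrinogen. HEMF1 (AT1G03475, chromosome 1, 868853 to 871308, minus strand), listed as LIN2 in RefSeq, encodes the coproporphyrinogen oxidase that follows.

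Among the 10 genes there are 3 pairs that encode the same enzyme, so the coding sequences show how well short reads could tell the partners apart. The coding sequences of HEMA1 and HEMA2 were identical at 83.1% of 1581 aligned bases, those of GSA1 and GSA2 at 83.5% of 1419, and those of HEME1 and HEME2 at 61.7% of 1147. The longest run without a difference was 49 bases in the HEMA pair, 38 in the GSA pair and 11 in the HEME pair. In the HEMA and GSA pairs it lies inside the windows of 60 coding bases that follow, in which capitals mark the bases that differ between partners.
HEMA1 (TAIR10.1 chr1:21625475-21625534, minus strand): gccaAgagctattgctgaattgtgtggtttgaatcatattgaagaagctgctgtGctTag
HEMA2 (TAIR10.1 chr1:3238578-3238637, minus strand): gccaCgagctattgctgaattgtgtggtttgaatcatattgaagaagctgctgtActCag
GSA1 (TAIR10.1 chr5:25452480-25452539, plus strand): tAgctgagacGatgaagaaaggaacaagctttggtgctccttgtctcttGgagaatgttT
GSA2 (TAIR10.1 chr3:18050396-18050455, plus strand): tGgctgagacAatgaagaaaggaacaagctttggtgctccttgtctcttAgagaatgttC
No exon word of 50 bases from either pair, or from HEMC, HEMD, HEME1, HEME2 or HEMF1, was found elsewhere in the nuclear genome. HEMB1 was the exception, with 12.2% of its words also present in sequence between annotated genes. Exons of another gene overlapped 10.7% of the HEMC exon bases and 0.783% of those of HEME1, and none of those of the other 8 genes.

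Upstream sequence was read for the members because they encode steps of one pathway. CCAATC, searched on both strands, was found in 1 of 10 windows from 250 bases before to 50 after the annotated start, against 12.3% of 27443 protein-coding genes. GATAAG, also searched on both strands, was found in 2 of 10 against 14.6%. The members with a match to either upstream of the start are shown with the match in capitals, GSA2 only as far as the neighbouring gene. The GATAAG match of HEME2 lies after the start.
GSA2 (TAIR10.1 chr3:18049475-18049570, plus strand, CCAATC on the reverse strand): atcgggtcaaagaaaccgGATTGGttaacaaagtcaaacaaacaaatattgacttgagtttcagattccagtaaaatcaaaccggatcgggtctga
HEMF1 (TAIR10.1 chr1:871309-871558, minus strand, GATAAG): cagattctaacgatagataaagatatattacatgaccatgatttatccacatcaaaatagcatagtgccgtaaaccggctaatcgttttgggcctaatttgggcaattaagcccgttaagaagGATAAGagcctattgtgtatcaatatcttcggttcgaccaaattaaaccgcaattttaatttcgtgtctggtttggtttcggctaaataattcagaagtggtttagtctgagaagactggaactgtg
HEMA1 and HEMA2 had neither in their windows.

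The genotype table holds normalised read counts and the dark and light table holds raw counts, and each was analysed on its own. The reads recovered behind the normalised values came to between 18796289 and 19088784 per genotype library, and the dark and light libraries had 18798088 and 27831231 counts. The targeted genes did not move together in the line labelled epl1a/b. EPL1A had normalised counts of 282 and 225 in wild type and 93.8 and 79.2 in epl1a/b (log2 change -1.54 ± 0.16, SE; limma adjusted p = 0.000233). EPL1B had 335 and 351 in wild type and 4656 and 4399 in epl1a/b, which is 13.2-fold higher (log2 change 3.72 ± 0.07, SE; limma adjusted p = 7.41e-07). What kind of EPL1B transcript these reads come from, and whether the function of that gene is lost, was not tested. Directions are those of the libraries labelled epl1a/b. All 5 green leaf markers examined were lower in epl1a/b, with summed normalised counts of 847793 and 773843 in wild type against 393666 and 390794. Of 10 root markers, 5 were lower and 1 higher, with sums of 6066 and 6169 against 4350 and 4893. The 12 seed storage and oil body genes summed to 54.0 and 68.4 against 139.6 and 117. Only 5 of these 12 could be tested, of which 2 were higher and 3 did not pass, and 7 of the 12 stood at 0 in wild type. In such whole-seedling RNA, fewer cells of a type and less RNA per cell cannot be told apart.

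Of the 10 early tetrapyrrole genes, 9 were lower in epl1a/b and none was higher. The 9 fell to between 23.0% and 67.0% of the wild type level, and HEMA2 did not pass. Among all 23658 genes tested, 24.1% were lower and 22.5% higher by the same call, a Benjamini-Hochberg adjusted p under 0.05 from limma on log2(value + 1). For all 10 genes both epl1a/b values lay below both wild type values on the deposited scaling, which held for 37.6% of all genes tested. For HEMA2 this separation depended on that scaling, as described below. The median log2 change of the 10 genes was -1.32, beside 0.02 over all genes. Green leaf markers fell in the same libraries, and their part in these changes was not tested.

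**Figure D1:**
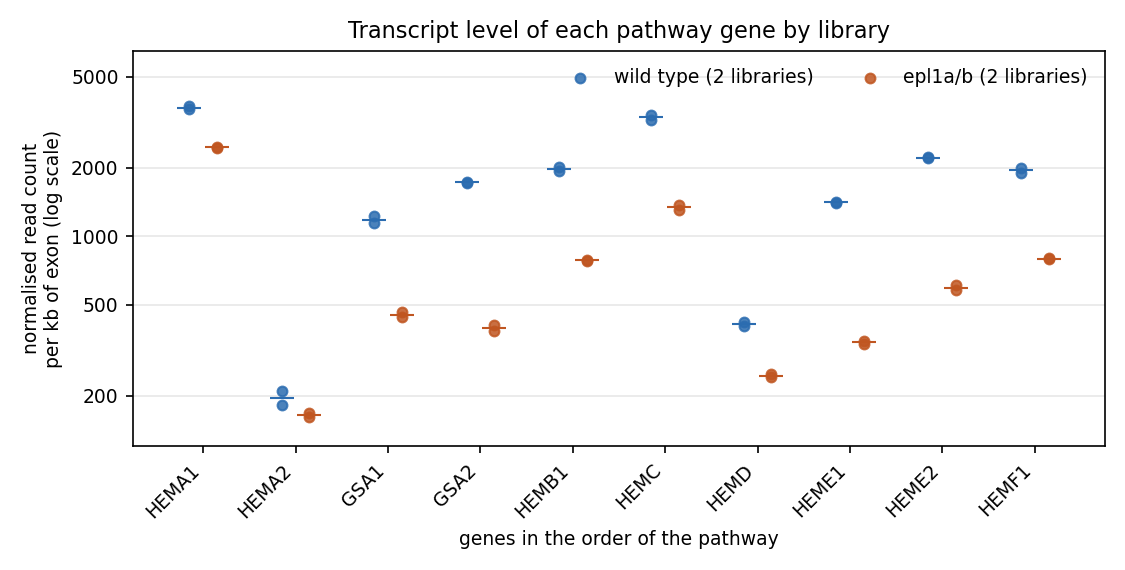
Normalised read count per kb of exon (log scale) of each of the 10 genes in pathway order, with 1 point per library and a line at the mean of each genotype. On this deposited scaling the epl1a/b points lie below the wild type points for every gene, with the narrowest gap at HEMA2 and the widest at GSA2.

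At the entry to the pathway, the reductase genes had the smallest log2 changes of the 10 genes. HEMA1 had normalised counts of 8567 and 8334 in wild type and 5625 and 5703 in epl1a/b. The groups did not overlap, and the level was 1.49-fold lower (limma adjusted p = 0.000435; log2 change -0.58 ± 0.07, SE). HEMA2, the form known for expression also outside green tissue, had 400.3 and 461 in wild type and 356 and 369.9 in epl1a/b. Its log2 change was -0.24 ± 0.10 (SE), which did not pass (limma adjusted p = 0.0858), and the wild type libraries lay farther apart than the epl1a/b ones.

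The aminotransferase genes that make 5-aminolevulinate were both lower. GSA2 had 3064 and 3043 in wild type and 725 and 678 in epl1a/b. It was 4.35-fold lower, the largest fall of the 10 genes (log2 change -2.12 ± 0.07, SE; limma adjusted p = 2.03e-06). GSA1 had 2240.1 and 2397 in wild type and 864 and 914 in epl1a/b, 2.61-fold lower (limma adjusted p = 7.74e-06; log2 change -1.38 ± 0.07, SE). GSA2 was thus the higher partner in wild type by normalised count and the lower in epl1a/b.

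The genes for porphobilinogen and the open chain fell by nearly the same factor. HEMB1 had 4258 and 4078 in wild type and 1651 and 1661 in epl1a/b, 2.52-fold lower (limma adjusted p = 6.30e-06; log2 change -1.33 ± 0.07, SE). HEMC had 5561 and 5333 in wild type and 2252 and 2149 in epl1a/b, 2.47-fold lower (limma adjusted p = 7.77e-06; log2 change -1.31 ± 0.07, SE). Replicates of either gene lay far closer to each other than to the other genotype. HEMD, for the enzyme that closes the ring, was lower too, with 719 and 693 in wild type and 424 and 413 in epl1a/b. It was 1.69-fold lower (limma adjusted p = 0.000232; log2 change -0.75 ± 0.08, SE).

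Both decarboxylase genes were lower, and they come after GSA2 in the order of log2 changes. HEME1 had 2870.2 and 2892 in wild type and 690.05 and 713 in epl1a/b, 4.10-fold lower (limma adjusted p = 2.03e-06; log2 change -2.04 ± 0.07, SE). HEME2 had 3451 and 3422 in wild type and 945 and 905 in epl1a/b, 3.71-fold lower (limma adjusted p = 2.15e-06; log2 change -1.89 ± 0.07, SE). HEME2 was the higher partner by normalised count in all 4 libraries. HEMF1, for the oxidase, had 3310 and 3471 in wild type and 1379 and 1400 in epl1a/b, 2.44-fold lower (limma adjusted p = 7.47e-06; log2 change -1.29 ± 0.07, SE).

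The scaling of the libraries bears on these values. Bringing each library to the same total shifted the median over all genes from a log2 change of 0.02 to 0.25 and raised every member's value by a similar amount, so that HEMA1 stood at -0.34 and HEMA2 at -0.0025, while the calls of all 10 genes stayed as they were. The split over all genes then moved to 8749 higher and 3655 lower. In recovered reads, whose library totals were nearly equal, both epl1a/b counts of HEMA2 lay between the wild type counts. The separation of HEMA2 by genotype therefore rests on the deposited scaling.

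The members for each step were summed on the scale of normalised counts per kb of exon, leaving out HEMA3, HEMB2 and HEMF2, further isoforms that are described with the rest of the pathway. The percentages of wild type that follow rest on the deposited scaling. Glutamyl-tRNA reductase transcripts went from 3852 ± 51.9 to 2616 ± 28.2 (SD, n = 2 each), or 67.9% of wild type. The aminotransferase went from 2905 ± 47.9 to 849 ± 0.476, or 29.2%, and the decarboxylase from 3619 ± 5.83 to 938 ± 10.4, or 25.9% (SD, n = 2 each). The dehydratase, the deaminase and the coproporphyrinogen oxidase stood at 39.7%, 40.4% and 41.0% of wild type, and uroporphyrinogen III synthase at 59.2%. Reductase and decarboxylase, the highest and the next in wild type on this scale, thus ended at 2616 and 938 in epl1a/b.

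Per kb of exon, HEMA1 was the highest of the 10 genes in each genotype library, with 3657 ± 71.3 in wild type and 2451 ± 23.9 in epl1a/b (SD, n = 2 each), followed by HEMC. HEMD and HEMA2 were the lowest in each, with HEMD at 413 ± 10.6 and HEMA2 at 196 ± 19.3 in wild type (SD, n = 2 each). In wild type the middle ran from HEME2 through HEMB1, HEMF1, GSA2 and HEME1 to GSA1. HEMB1 at 1971 ± 60.1 and HEMF1 at 1945 ± 65.3 did not differ beyond their spread and changed places between the replicates. In epl1a/b the middle ran from HEMF1 through HEMB1, HEME2, GSA1 and GSA2 to HEME1 in both libraries, with HEME2, GSA2 and HEME1 each further down among these 6 genes than in wild type.

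The ratio of HEMA1 to another member within a library does not depend on how libraries are scaled. The log2 ratio of HEMA1 to GSA2 was 1.48 and 1.45 in wild type and 2.96 and 3.07 in epl1a/b. That of HEMA1 to HEMC was 0.62 and 0.64 in wild type and 1.32 and 1.41 in epl1a/b, and that of HEMA1 to HEMD 3.58 and 3.59 against 3.73 and 3.79. HEMA1 was higher relative to 8 of the 9 other members in epl1a/b with no overlap between genotypes, which held for 13.1% of the 23657 other genes tested. HEMA2 was the exception, with log2 ratios of 4.42 and 4.18 in wild type and 3.98 and 3.95 in epl1a/b, a direction without overlap that held for 71.3% of other genes. With 2 libraries a genotype, an exact two-sided permutation test cannot give a p below 0.333, and it gave 0.333 for each of the 9 ratios.

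Col-0 seedlings in the dark and in the light allow the same genes to be read in another contrast, with a single library on each side, so that no replicate check and no test was possible. Of the 10 genes, 8 were at least 2-fold lower in the dark library, beside 19.4% of the 21128 genes with at least 10 counts, and none was at least 2-fold higher, beside 15.8%. The median log2 ratio of dark over light was -1.60 for the 10 genes and -0.01 over all genes. HEMF1 and HEMA2 were the members within 2-fold. The 12 seed storage and oil body genes summed to 7344 CPM, a TMM-scaled count per 1e+06 reads, in the dark and to 27.2 CPM in the light, and all 12 were at least 2-fold higher in the dark. The 5 green leaf markers summed to 12990 and 57225 CPM, and 10 root markers to 453 and 299 CPM. Among the root markers, the 5 CASP genes, which are endodermal, were all at least 2-fold higher in the dark, with sums of 310.1 and 53.5 CPM. The other 5 summed to 143 and 245 CPM, with PHT1;1 at least 2-fold lower in the dark and 4 within 2-fold. These markers differed between the same libraries, and their part in the members' ratios was not tested.

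HEMA1 had 2128 counts in the dark and 14142 in the light, or 105 and 549 CPM. Its light level was 5.24 times the dark level (95% Clopper-Pearson interval 5.01 to 5.49, counting error only), the largest ratio of the 10 genes. HEMA2 had 621 and 701 counts, or 30.6 and 27.2 CPM, and its dark level was 1.12 times the light level (interval 1.01 to 1.25). The reductase genes thus lay at opposite ends of the members in this contrast.

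Next in order of size were the decarboxylase genes and GSA2. HEME2 had 1211 counts in the dark and 7983 in the light, a light level 5.20 times the dark level (interval 4.90 to 5.53), and HEME1 had 1215 and 7833, 5.08 times (4.79 to 5.41). These intervals overlap that of HEMA1, so the order of the 3 genes is not settled by the counts. GSA2 had 1403 and 7957 counts, 4.47 times (4.23 to 4.74), while its partner GSA1 had 2217 and 6010, 2.14 times (2.04 to 2.25). With library totals in place of TMM, the log2 ratio of GSA1 was -0.87 and 7 members passed 2-fold.

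The remaining genes had smaller ratios than GSA2. HEMC had 3286 counts in the dark and 12784 in the light, a light level 3.07 times the dark level (interval 2.96 to 3.19). HEMD had 295 and 1117, 2.98 times (2.63 to 3.41), and HEMB1 had 2124 and 6861, 2.55 times (2.43 to 2.68). HEMF1, the last enzyme of the series, had 2958 and 7299, 1.95 times (1.87 to 2.03). Per kb of exon HEMA1 was the second highest of the 10 genes in the light, after HEMC, and in the dark it stood below HEMC, HEMF1, GSA1 and HEMB1.

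**Figure D2:**
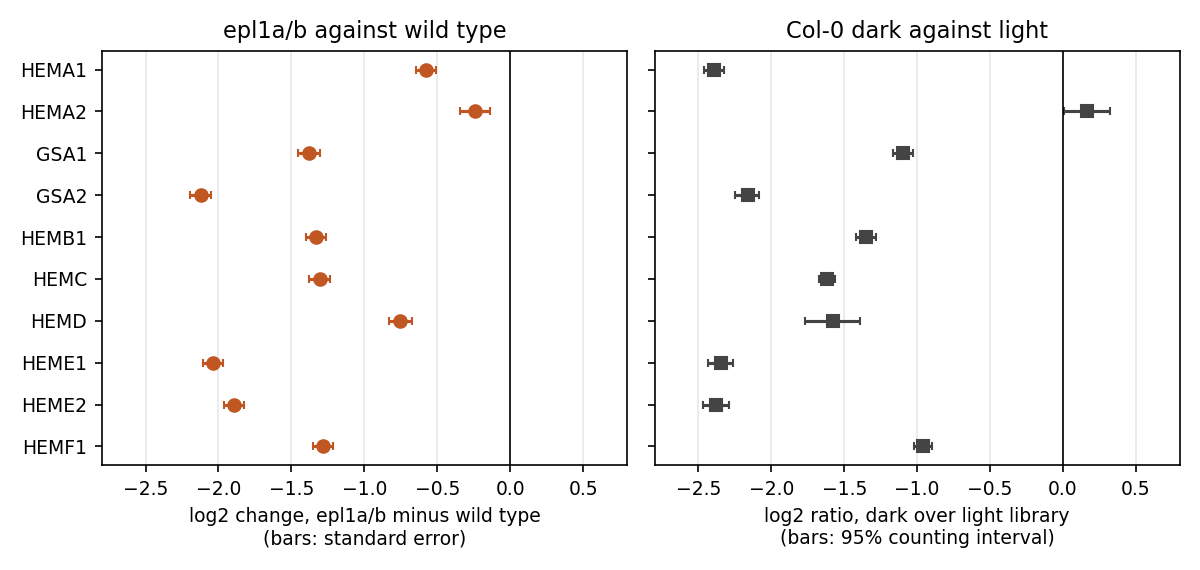
Log2 change of each gene in epl1a/b against wild type with its standard error (left) and log2 ratio of the dark over the light library with its 95% counting interval (right), 1 row per gene in pathway order. GSA2, HEME1 and HEME2 lie far to the left in both panels, HEMA2 lies nearest to 0 in both, and HEMA1 lies at -0.58 on the left and -2.39 on the right.

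Shares within a pair of partners are free of library scaling and are given for both tables, which were normalised separately. Other differences between the experiments remain in them, as the HEME1 share below shows. GSA1 made up 39.8% and 41.6% of the summed GSA level per kb of exon in wild type, and 51.9% and 54.9% in epl1a/b. The genotypes did not overlap, and the share differed by 12.7 percentage points (40.7% ± 1.27 against 53.4% ± 2.15, SD, n = 2 each; exact two-sided permutation p = 0.333, the smallest this design allows). In the separate pair of libraries it was 58.8% in the dark (Clopper-Pearson interval 57.2% to 60.5%) and 40.6% in the light (39.8% to 41.4%). The light library therefore lay between the wild type replicates, and the dark library lay above both epl1a/b libraries.

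The HEMA and HEME pairs differed from this. HEMA1 made up 95.3% and 94.5% of the HEMA level in wild type and 93.8% and 93.6% in epl1a/b, a difference of -1.23 percentage points. It was 95.1% in the light library (94.7% to 95.4%) and 76.5% in the dark one (74.9% to 78.1%). HEME1 made up 38.8% and 39.1% of the HEME level in wild type and 35.7% and 37.4% in epl1a/b, a difference of -2.37 percentage points. It was 43.3% in the dark (41.3% to 45.3%) and 42.7% in the light (42.0% to 43.5%), whose intervals overlap. Unlike the GSA1 share, the HEME1 share in the light library lay above both wild type libraries. For both pairs the exact two-sided permutation p between genotypes was 0.333, again the smallest possible.

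**Figure D3:**
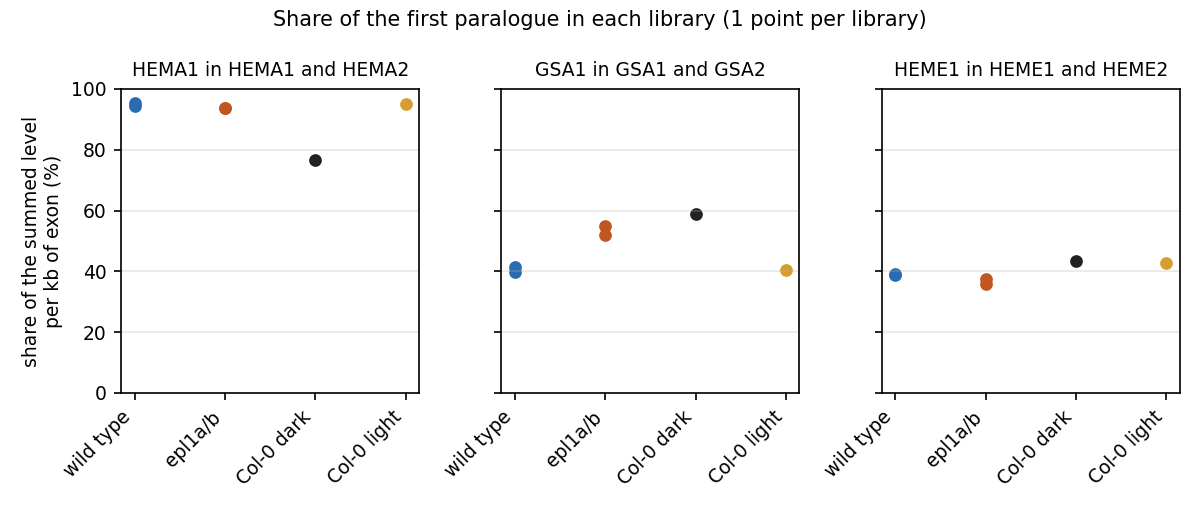
Share (%) of HEMA1, GSA1 and HEME1 in the summed level per kb of exon of each pair of partners, with 1 point per library. The GSA1 share is 40.7% on average in wild type, 53.4% in epl1a/b, 40.6% in the light and 58.8% in the dark, while the HEMA1 share is lowest in the dark library, at 76.5%.

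The genes with the pattern most like HEMA1 were sought by the distance over both contrasts, the genotype log2 change and the dark over light log2 ratio, among 20486 other protein-coding genes tested in both. The nearest was AT3G28760, annotated as a 3-dehydroquinate synthase, with -0.59 and -2.39. AT4G29030, a putative membrane lipoprotein, had -0.56 and -2.38, and AT2G44040, annotated as a dihydrodipicolinate reductase, had -0.58 and -2.37. No other early tetrapyrrole gene was among these 3.

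Other tetrapyrrole genes were read in the same genotype fit, from a list of 32 in 6 groups. Of these 32, 23 were lower, 4 were higher and 5 did not pass, with a median log2 change of -1.02, and on library totals 20 were lower. The number higher was 2 without wild type replicate 1 and 2 without epl1a/b replicate 1, since FC1 and HO3 then missed the threshold. The genes for charging the transfer RNA and for proteins that bind the reductase were all lower. FLU, a negative regulator that binds the reductase, was 4.33-fold lower (limma adjusted p = 2.14e-06; log2 change -2.11 ± 0.07, SE). GBP, a membrane protein that binds the reductase, was 2.47-fold lower, and OVA3, which charges the transfer RNA with glutamate, 1.95-fold lower. FLU had 2248 and 2116 in wild type and 493 and 513 in epl1a/b, with no overlap.

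Of 4 further genes listed for the early steps, the isoforms HEMA3, HEMB2 and HEMF2 with HEMN1, 1 was lower, 1 was higher and 2 did not pass. HEMA3, the third reductase gene, rose 4.65-fold from a low level (log2 change 2.22 ± 0.23, SE; limma adjusted p = 0.000191), with 19 and 24 reads in wild type and 117 and 130 in epl1a/b. HEMF2 was 1.48-fold lower (limma adjusted p = 0.00430). The log2 change was -0.33 for HEMB2, which had 1 to 5 reads per library, and -0.73 for HEMN1, and 30.5% of the HEMN1 exon bases are overlapped by other genes. Both protoporphyrinogen oxidase genes, HEMG1 and HEMG2, were 2.03-fold lower.

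In the magnesium branch, which leads to chlorophyll, 13 of 14 genes were lower, none was higher, and the median log2 change was -1.86, with PORA and PORC, protochlorophyllide oxidoreductases, lowest at -4.78 and -3.68. PORA had 110 and 75 reads in wild type and 4 and 2 in epl1a/b. CHLH, a magnesium chelatase subunit, had -0.41 ± 0.08 (SE), a call lost on library totals (-0.17). GUN4, which activates the chelatase, did not pass (-0.66), and 73.0% of its exon bases are overlapped by another gene. In the heme branch 4 of 7 genes were lower and 2 higher, and on library totals 2 were lower and 2 higher. HO1, a heme oxygenase gene, then missed the threshold (log2 change -0.19, limma adjusted p = 0.0504), as did HY2, for the enzyme that makes phytochromobilin (-0.20, limma adjusted p = 0.137). HY2 also missed it with DESeq2 (-0.43), when wild type replicate 1 was left out (-0.34), and likewise for replicate 1 (-0.46) and replicate 2 (-0.41) of epl1a/b. The ferrochelatase genes went opposite ways, with FC2 2.76-fold lower (limma adjusted p = 8.60e-06; log2 change -1.46 ± 0.08, SE) and FC1 1.27-fold higher (0.35 ± 0.08, SE; limma adjusted p = 0.00909). FC1 missed the threshold when wild type replicate 1 was left out (0.29), and likewise for replicate 1 (0.38) and replicate 2 (0.32) of epl1a/b. In the siroheme branch UPM1, the methyltransferase that draws off uroporphyrinogen III, rose 2.35-fold, from 2445 and 2908 to 6444 and 6079.9 (log2 change 1.23 ± 0.10, SE; limma adjusted p = 4.59e-05; 18 words of 50 bases shared with a pseudogene), while SIRB, which inserts the iron, did not pass (-0.10).

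**Figure D4:**
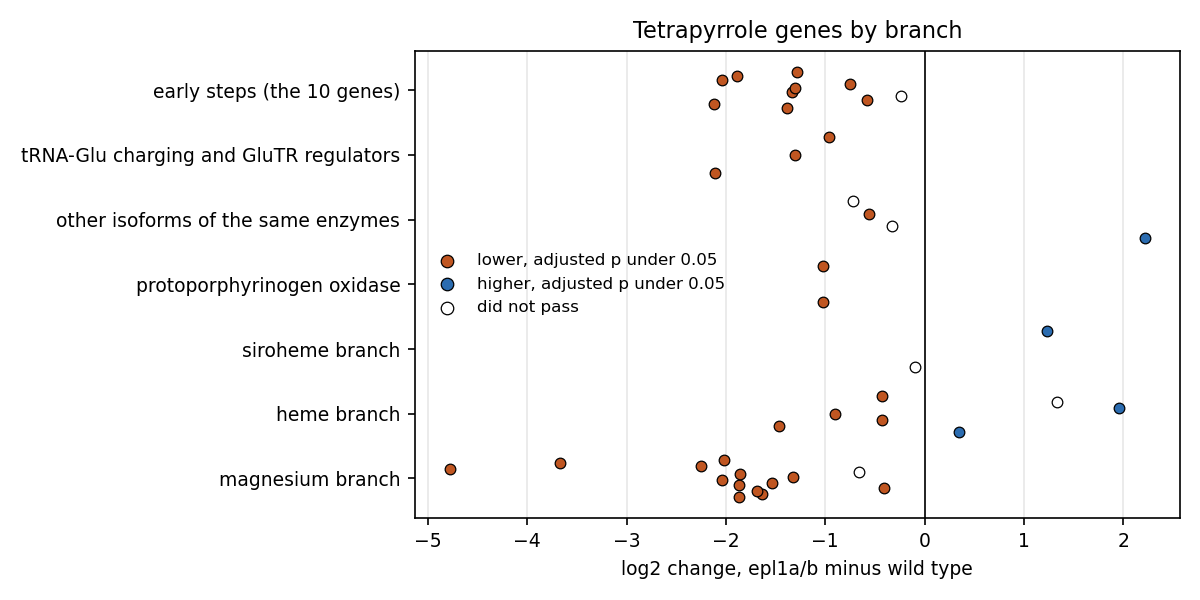
Log2 change in epl1a/b against wild type of the 10 early genes and of 32 other tetrapyrrole genes by group, 1 point per gene, filled by the call at an adjusted p under 0.05. All points of the early genes and of the magnesium branch lie to the left of 0, HEMA2 and GUN4 without a call. UPM1 of the siroheme branch, FC1, HO3 and HO4 of the heme branch and HEMA3 lie to the right, HO4 without a call.

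Next to 2 of the members lie heme oxygenase genes, which open the heme ring. HO4 is the next gene upstream of HEMA1, on the same strand with 1355 bases between them, and HO2 is the next gene upstream of HEMD, with 786 bases between them on the same strand. HO2 was 1.87-fold lower in epl1a/b (log2 change -0.91 ± 0.11, SE; limma adjusted p = 0.000379) and HEMD 1.69-fold lower. HO4 had 3 and 4 reads in wild type and 25 and 6 in epl1a/b and did not pass (log2 change 1.33 ± 0.68, SE; limma adjusted p = 0.146), with 2.33 and a call without epl1a/b replicate 2. HO3, another heme oxygenase gene, had 4 and 9 reads against 40 and 25 (log2 change 1.95 ± 0.46, SE; limma adjusted p = 0.0103), which missed the threshold when wild type replicate 1 was left out (1.47), and likewise for replicate 1 (1.61) and replicate 2 (2.30) of epl1a/b.

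In the dark and light libraries, 2 of 3 genes for charging the transfer RNA or for proteins that bind the reductase were at least 2-fold lower in the dark. The magnesium branch had 10 of 13 genes with enough counts lower and 1 higher. The latter was PORA, known as the form of etiolated seedlings, with 20881 counts in the dark and 99 in the light. In the heme branch 4 of 6 genes were lower and none was higher, and in the siroheme branch both genes were within 2-fold. Of the protoporphyrinogen oxidase genes 1 of 2 was lower, and of the 4 further genes listed for the early steps 2 were lower and 1, HEMB2, was higher. Some of these ratios rest on few counts, with 24 in the dark and 10 in the light for HEMB2, 2 and 29 for HEMA3, and 1 and 11 for HO4. Over all 21128 genes, 19.4% were at least 2-fold lower in the dark and 15.8% at least 2-fold higher.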

How the data were processed

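The genotype table holds a gene-level signal, normalised read counts per the file headers, and the dark and light table holds raw read counts per the file headers. HISAT2, featureCounts, edgeR and the TAIR10 build are named in the submitters' processing notes, without versions or settings. Whether counting used strand is not known from the labels or headers. The normalised values could be inverted to whole reads for 32548 of 32548 genes (tolerance 1e-06, edgeR's library-size equalisation). The titles of the epl1a/b libraries begin with the name of a histone mark, and they were used as RNA-seq from their other labels.

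Genotypes were compared with limma 3.58.1 (R 4.3.3, trend and robust) on log2(value + 1) of genes at 1 or more in at least 2 libraries, with Benjamini-Hochberg adjustment. This scale understates changes of low genes. Alternatives were 2 other pseudocounts and filters, library totals, a replicate block, each library left out, and edgeR 4.0.16 and DESeq2 1.42.0 on recovered reads. Dark and light counts were scaled with TMM (prior count 2, at least 10 counts). Intervals cover counting error only.

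Levels per kb used all annotated exons of RefSeq TAIR10.1. Coding DNA identity replaced the planned protein identity. Members, lists, motifs and tests were chosen with earlier results of these data known. Named genes are all members, the targeted genes, the largest called changes and the uncalled genes of each list, heme genes beside members, and the 3 nearest to HEMA1. FC1, HO1, HY2, OVA3 and CHLH fall outside that rule and were chosen after their values were seen. An upstream sequence and the motif search that goes with it are not reported here.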

Additional observations from a re-analysis of the deposited data

How the results depend on the processing

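The count of early tetrapyrrole genes lower in epl1a/b was 9, and the count higher was 0, under each of 13 alternatives, HEMA2 having an adjusted p between 0.0641 and 0.986. Scaling to library totals gave 8749 genes higher and 3655 lower over the whole table and moved SIRB to 0.14. Leaving out 1 library gave 2660 to 3689 genes higher, 3836 to 4147 lower, and 2 to 4 other tetrapyrrole genes higher. HEMB2 ranged from -1.10 to 0.45 with 1 library left out and changed sign without wild type replicate 2 (0.45) and epl1a/b replicate 2 (0.35). Leaving out 1 library moved the GSA1 share difference between 11.2 and 14.2 percentage points, that of HEMA1 between -1.63 and -0.823 and that of HEME1 between -3.24 and -1.49.

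The replicate block gave 9 members lower, 4578 genes higher and 5099 lower. Deviations of same-numbered libraries from their group means had only a weak negative correlation (r = -0.14 over 23658 genes). Crossed pairing was added after seeing the data, with 5353 higher and 5585 lower. The quasi-likelihood test of edgeR on recovered reads called 5363 genes higher and 5581 lower, and DESeq2 3806 and 4378. Depth limits HEMB2, HO3 and HO4, which had 1 to 40 reads per library.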
